A study of Mus musculus with 8 samples.

Results

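Genes that mark the adipocyte, the fat-storing cell, were followed in mouse gastrocnemius, the large calf muscle, after a diet containing ursolic acid, a triterpenoid of fruit peel. The list holds 10 genes: Adipoq, Lep, Retn, Cfd, Pparg, Fabp4, Plin1, Cidec, Lipe and Pnpla2. A gene was measured where an array row carried it as its only symbol, which left 8 of the 10, among 14860 genes and 16755 rows in all. Cfd, the secreted protease adipsin, had no row of its own and was not analysed here. Lipe, hormone-sensitive lipase, shared its row with a second symbol and was not used.

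The ursolic acid group ate standard chow with 0.27% ursolic acid for 5 weeks, and the control group ate the same chow without it. All mice were male C57BL/6 animals aged 12 weeks. Each of the 4 ursolic acid and 4 control samples was RNA pooled from 2 mice, so animals within a pool cannot be told apart. One-colour arrays gave a log2 expression value for every row. Grouping was by title, which the treatment entry matches. For 4 samples the free-text description goes against both: ursolic acid samples 1 and 3 are described as untreated, and control samples 2 and 4 as treated. Ursolic acid samples 2 and 4 and control samples 1 and 3 have concordant labels.

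Array medians lay between 5.55 and 5.61, and control sample 1 correlated less with the other arrays (mean Spearman 0.977) than the other 7 did (0.983 to 0.986). No detection call is given. The 801 rows of olfactory and vomeronasal receptor genes, whose RNA is unlikely in muscle, served as a guide to a dim row, with a 95th percentile of 5.65. Muscle genes were far above it: troponins Tnnt3, Tnnc2 and Tnni2 and skeletal actin Acta1 averaged 12.46, 12.36, 12.21 and 12.06 in the ursolic acid group. Of the 8 measured adipocyte markers, 7 lay above that guide, as did 7293 other genes, of 14860 genes in all. Lying above it therefore does not set the markers apart. Retn, Pparg, Plin1 and Cidec had group means of 6.08 to 6.41, not far above the guide. Of the markers only Lep lay below it, so whether its row measured any leptin RNA is unknown.

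Adipocytes keep triglyceride in 1 large droplet coated by perilipin and release it as fatty acids through a chain of lipases. The nuclear receptor PPARγ drives the genes of this programme, and the cells secrete adipokines such as adiponectin, leptin and, in mice, resistin. Fat cells lie between the bundles of skeletal muscle and in the fat pad around it, and dissected muscle carries some of their RNA. In bulk RNA, fewer fat cells and less RNA per fat cell cannot be told apart.

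None of the 8 markers passed a test between the ursolic acid and control groups. By limma, 0 of 8 passed an adjusted p of 0.05 over all rows, where 0% of all 16755 rows did, and 0 of 8 passed an unadjusted p of 0.05, where 7.07% of rows did. In 0 of 8 did the groups fail to overlap, against 4.49% of rows. The log2 difference was above 0 for 5 and below 0 for 3, with a median of 0.06 over the 8 markers and -0.01 over all rows. That median was -0.0114 without control sample 2, -0.0062 without ursolic acid sample 4 and 0.11 without control sample 1. Adjusted p-values ran from 0.801 to 0.987. The widest 95% interval, that of Adipoq, reached from 0.778 to 1.42 of the control level, so changes of that size lay within what 4 pools against 4 left unresolved.

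**Figure D1:**
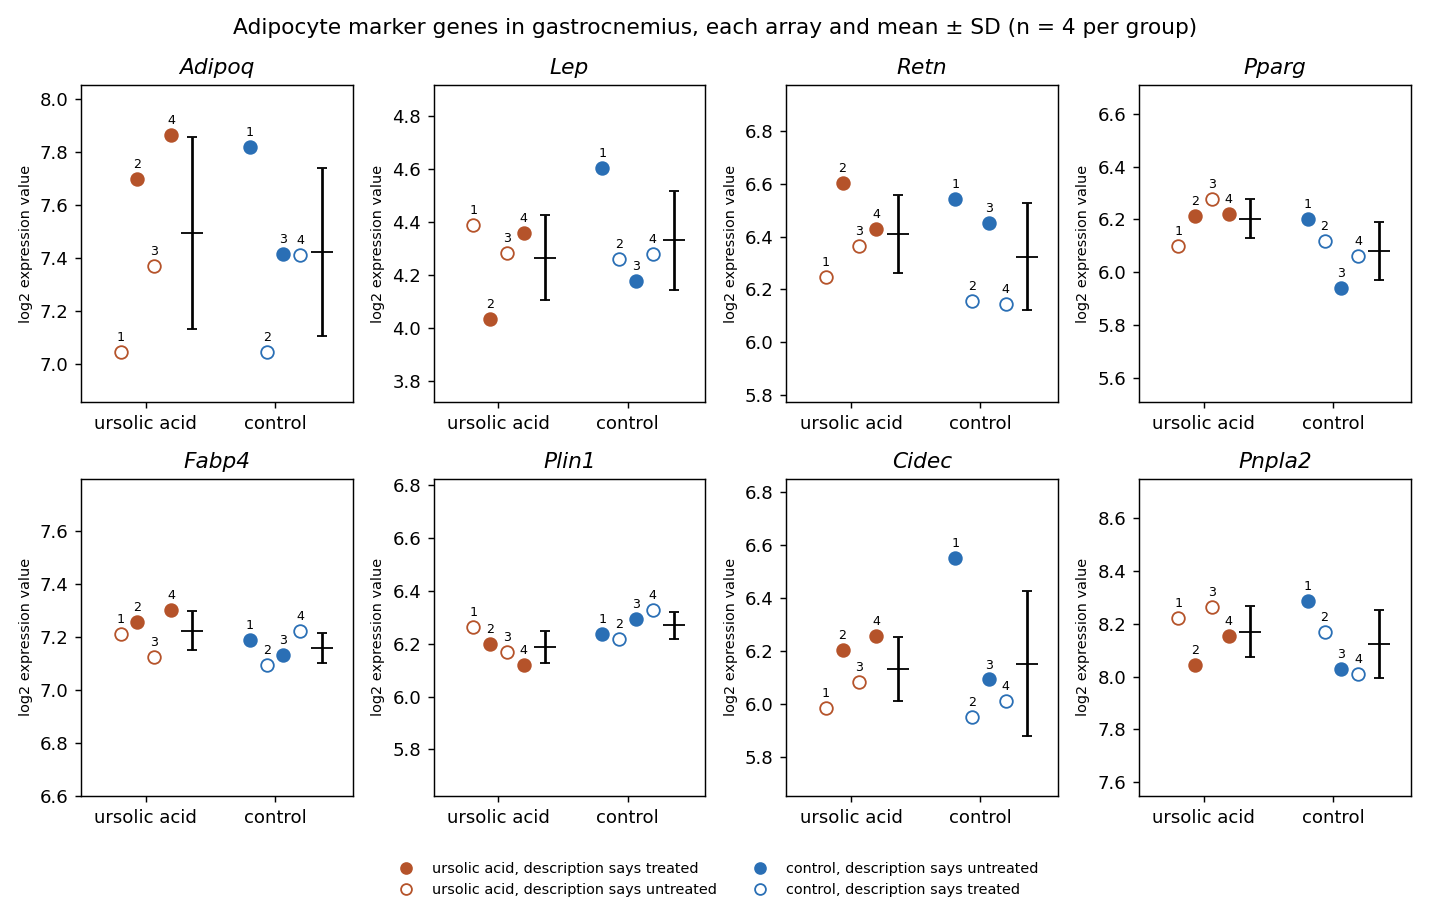
Each panel plots 1 adipocyte marker, with the log2 expression value of every array on the vertical axis (each panel spans the same number of log2 units), the sample number above the point, and the mean with SD bars to the right of each group. Filled points have a description that matches the title and open points have one that goes against it. The groups overlap in all 8 panels, and Adipoq spreads most widely, from 7.04 to 7.87.

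Among the adipokines, Adipoq encodes adiponectin, a hormone made almost only by fat cells. Its log2 values were 7.04, 7.70, 7.37 and 7.87 in ursolic acid samples 1 to 4, against 7.82, 7.04, 7.41 and 7.41 in control arrays samples 1 to 4. Both groups held arrays at the bottom of the range and arrays near the top, and they overlapped almost completely. The means were 7.49 ± 0.36 in the ursolic acid group and 7.42 ± 0.32 in control arrays (SD, n = 4), a difference of 0.07 (95% interval -0.36 to 0.51; limma adjusted p = 0.967).

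Retn encodes resistin, a hormone of mouse fat cells. It had log2 values of 6.25, 6.60, 6.37 and 6.43 in ursolic acid arrays, against 6.54, 6.16, 6.45 and 6.15 in control arrays. The highest array was ursolic acid sample 2 and the lowest control sample 4, but the groups overlapped and the difference was 0.09 (interval -0.16 to 0.33; limma adjusted p = 0.917). Lep, which encodes the satiety hormone leptin, had 4.39, 4.03, 4.28 and 4.36 in ursolic acid arrays, against 4.60, 4.26, 4.18 and 4.28 in control arrays. The extremes were ursolic acid sample 2 at the bottom and control sample 1 at the top, all within the range of the receptor rows. The difference was -0.06 (interval -0.31 to 0.18), and it was 0.03 without control sample 1.

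Pparg, the nuclear receptor that directs fat cell formation, had log2 values of 6.10, 6.21, 6.28 and 6.22 in ursolic acid arrays, against 6.20, 6.12, 5.94 and 6.06 in control arrays. Ursolic acid samples 2, 3 and 4 were above every control array and sample 1 was among the controls. Its difference, 0.12 (interval -0.04 to 0.29), was the largest above 0 among the 8 and did not pass (limma unadjusted p = 0.134, adjusted p = 0.801). Fabp4 encodes the fatty acid carrier aP2, which is also made by endothelial cells and macrophages. It had 7.21, 7.26, 7.13 and 7.30 in ursolic acid arrays, against 7.19, 7.10, 7.13 and 7.22 in control arrays. All 8 arrays lay within 0.21 log2 units, with a difference of 0.07 (interval -0.08 to 0.21).

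Plin1 encodes perilipin 1, the coat protein that guards the droplet from lipases. Its log2 values were 6.26, 6.20, 6.17 and 6.12 in ursolic acid arrays, against 6.24, 6.22, 6.29 and 6.33 in control arrays. Ursolic acid samples 2, 3 and 4 lay below every control array, and the difference of -0.08 (interval -0.22 to 0.06) did not pass (limma unadjusted p = 0.221). Cidec encodes a protein that fuses small droplets into large ones. It had 5.99, 6.20, 6.08 and 6.26 in ursolic acid arrays, against 6.55, 5.95, 6.09 and 6.01 in control arrays. Control sample 1 stood highest and control sample 2 lowest, with every ursolic acid array between them. The difference was -0.02 (interval -0.31 to 0.27) over all arrays and 0.11 without control sample 1. Pnpla2 encodes adipose triglyceride lipase, which starts the breakdown of stored fat and also works in muscle fibres. It had 8.22, 8.04, 8.26 and 8.15 in ursolic acid arrays, against 8.29, 8.17, 8.03 and 8.01 in control arrays, with a difference of 0.05 (interval -0.14 to 0.23).

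**Figure D2:**
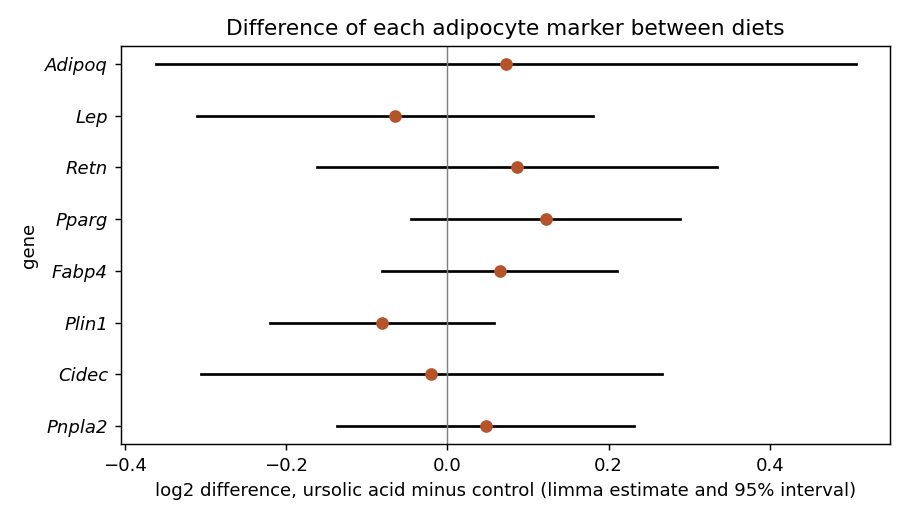
Points give the limma log2 difference, ursolic acid minus control, of each of the 8 adipocyte markers, and lines its 95% interval. Every interval includes 0; that of Adipoq is the widest, from -0.36 to 0.51, and that of Plin1 the narrowest, from -0.22 to 0.06.

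The markers differed in how far they varied between arrays of 1 group. The within-group SD of Adipoq, pooled over both groups, was 0.34 log2 units and lay at the 96.6th percentile of all rows, whose median SD was 0.13. Its highest array was 1.77-fold above its lowest. Cidec followed, with an SD of 0.21 (85.3th percentile) and a 1.52-fold range, then Retn with 0.18 (76.4th percentile) and a 1.37-fold range, and Lep with 0.17 (75.6th percentile). Pnpla2 had 0.11 and Pparg 0.09. Fabp4 and Plin1 varied least, with SDs of 0.07 and 0.06, at the 9.33th and 4.66th percentiles. Adipoq, Cidec and Retn were thus the 3 most variable of the 7 markers above the receptor guide.

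Cidec followed Adipoq from array to array. Over the 8 arrays Pearson's r was 0.84 (exact permutation p = 0.00285, two-sided; 0.0200 after Benjamini-Hochberg adjustment over the 7 relations with Adipoq) and Spearman's rho was 0.95 (exact permutation p = 0.00114, adjusted p = 0.00799). With the group means subtracted r was 0.86. Without ursolic acid sample 4 and control sample 1, the arrays farthest from the Adipoq median, r was 0.92 over 6 arrays. Leaving out 1 array in turn gave r of 0.81 to 0.95, and the adjusted p was above 0.05 without ursolic acid sample 1 (0.116), ursolic acid sample 3 (0.0653), control sample 2 (0.158) or control sample 3 (0.0653).

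Retn had an r of 0.76 with Adipoq (exact permutation p = 0.0346, 0.121 adjusted; rho 0.69, exact permutation p = 0.0694, 0.194 adjusted), and r was 0.75 without the same 2 arrays. Fabp4 had an r of 0.62 (exact permutation p = 0.107, 0.251 adjusted; rho 0.67, exact permutation p = 0.0831, 0.194 adjusted), and r was 0.50 without them. Neither passed after adjustment. The other 4 markers did not pass either. Pparg had an r of 0.41 and a rho of 0.29 (exact permutation p = 0.317 and 0.501), Plin1 of -0.41 and -0.29 (0.315 and 0.501), Lep of 0.16 and 0.14 (0.725 and 0.752), and Pnpla2 of -0.04 and -0.10 (0.923 and 0.840). Adjusted p-values for these 4 were 0.444 or more.

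The promoters of the 3 markers that varied most are shown with that of Plin1, which did not vary with them, as the stretch from 250 bases before to 50 bases after each annotated start (RefSeq, build GRCm38.p6). Of the 8 measured markers 7 had such an entry. Capitals mark AGGTCA, the core site of nuclear receptors such as PPARγ, TTGCNNAA, a C/EBP-like site, and CCAAT, each on either strand, and TATAAA on the strand of the gene. No 2 of these motifs overlap in letters here. Of 32851 promoters of that length, 16.3% hold AGGTCA, 10.8% TTGCNNAA, 37.4% CCAAT and 8.32% TATAAA. Adipoq lies at chr16:23146286-23146585 (+ strand), Retn at chr8:3655520-3655819 (+ strand), the 2 Cidec starts at chr6:113435711-113436010 and chr6:113434715-113435014 (- strand), and Plin1 at chr7:79732727-79733026 (- strand).
Adipoq: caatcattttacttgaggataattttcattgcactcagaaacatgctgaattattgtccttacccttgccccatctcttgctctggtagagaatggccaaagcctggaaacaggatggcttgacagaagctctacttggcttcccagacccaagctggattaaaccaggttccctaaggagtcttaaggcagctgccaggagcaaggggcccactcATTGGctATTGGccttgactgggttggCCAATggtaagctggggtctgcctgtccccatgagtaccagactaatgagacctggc
Retn: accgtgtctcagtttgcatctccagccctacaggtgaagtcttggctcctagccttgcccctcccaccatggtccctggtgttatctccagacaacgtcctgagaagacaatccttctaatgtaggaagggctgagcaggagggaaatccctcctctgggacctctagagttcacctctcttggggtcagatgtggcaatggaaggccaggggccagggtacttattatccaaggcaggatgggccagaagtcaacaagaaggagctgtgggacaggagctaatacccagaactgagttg
Cidec, first start: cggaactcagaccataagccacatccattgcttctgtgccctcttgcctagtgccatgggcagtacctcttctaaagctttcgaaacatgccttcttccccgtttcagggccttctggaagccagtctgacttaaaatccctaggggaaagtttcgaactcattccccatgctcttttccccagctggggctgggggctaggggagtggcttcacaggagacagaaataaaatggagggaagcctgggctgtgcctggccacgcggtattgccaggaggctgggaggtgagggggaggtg
Cidec, second start: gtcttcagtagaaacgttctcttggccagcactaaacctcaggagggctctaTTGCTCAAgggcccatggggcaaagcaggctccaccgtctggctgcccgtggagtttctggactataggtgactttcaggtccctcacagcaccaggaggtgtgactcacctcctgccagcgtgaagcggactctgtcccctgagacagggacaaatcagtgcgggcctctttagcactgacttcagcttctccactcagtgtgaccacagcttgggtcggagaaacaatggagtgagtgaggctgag
Plin1: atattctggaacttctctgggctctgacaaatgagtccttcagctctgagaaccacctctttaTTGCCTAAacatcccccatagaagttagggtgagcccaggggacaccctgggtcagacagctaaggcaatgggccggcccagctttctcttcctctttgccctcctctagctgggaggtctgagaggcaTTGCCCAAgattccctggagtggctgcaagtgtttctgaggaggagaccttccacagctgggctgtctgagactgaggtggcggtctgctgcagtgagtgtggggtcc
The Adipoq window holds 3 CCAAT matches, at positions -34, -27 and -7 relative to the start. The second Cidec start has 1 TTGCNNAA match, at position -198, and Plin1 has 2, at -187 and -58. The Retn window and the first Cidec window hold none of the 4 motifs. No motif of the 4 was found in the windows of all 3 markers that varied most.

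Genes of fat synthesis and storage outside the list were set beside the markers. A score was formed for each array as the mean, over the 7 markers above the receptor guide, of each value minus the gene's mean over 8 arrays. The values were not scaled by their spread, so the score mostly follows Adipoq, Cidec and Retn and does not stand for all 7 markers alike. It was -0.09, 0.08, 0.00 and 0.10 in ursolic acid samples 1 to 4, against 0.16, -0.13, -0.05 and -0.07 in control arrays samples 1 to 4. Both groups held high and low arrays. Of 41 measured genes on a list of other adipocyte genes, 4 had an r above 0.7 with this score, where 1.84% of all rows did. They were Fasn (0.97), Thrsp (0.83), Cav1 (0.72) and Hp (0.71), and Scd1 was next at 0.70. Other genes of fat synthesis and storage on that list had a lower r. It was 0.31 for Dgat2, 0.11 for Gpam, 0.05 for Acly and for Lpl, -0.13 for Acaca and -0.56 for the regulator Cebpa. The median r of the 41 was 0.33, against -0.02 over all rows. All these correlations describe 8 arrays that share background and normalization steps, and they carry no test.

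Fasn, fatty acid synthase, had log2 values of 5.88, 6.14, 5.98 and 6.18 in ursolic acid arrays, against 6.19, 5.88, 5.97 and 5.93 in control arrays, and its r with Adipoq alone was 0.96. Its high arrays were those of Adipoq: ursolic acid samples 2 and 4 and control sample 1. Scd1, the desaturase that makes oleate, had 8.35, 9.31, 8.34 and 9.26 in ursolic acid arrays, against 9.31, 8.54, 9.01 and 9.08 in control arrays, and an r of 0.85 with Adipoq. Ursolic acid samples 1 and 3 were its lowest arrays, and its range was wider than that of any marker. Between diets neither gene passed, with differences of 0.05 ± 0.09 (SE) for Fasn and -0.17 ± 0.25 for Scd1. Without control sample 1, r with the score was 0.97 for Fasn, 0.77 for Thrsp, 0.49 for Cav1, 0.77 for Hp and 0.63 for Scd1.

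**Figure D3:**
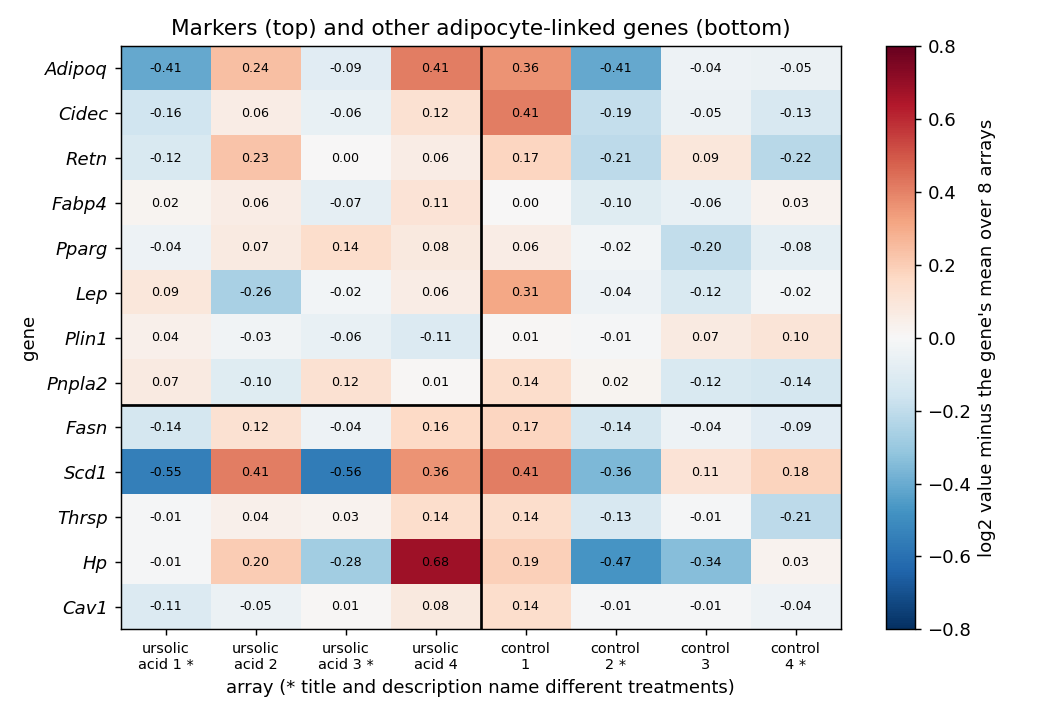
Rows are the 8 adipocyte markers (above the line) and 5 other adipocyte-linked genes (below it), and columns the 8 arrays, with ursolic acid left of control. Those 5 had the highest r with the marker score on the list of other adipocyte genes. An asterisk marks an array whose title and description disagree, and colour and number give the log2 value minus the gene's mean over the 8 arrays. Adipoq, Cidec, Retn and Fasn are above their means in ursolic acid samples 2 and 4 and control sample 1. They are below them in ursolic acid sample 1 and control samples 2 and 4. Retn is also above its mean in control sample 3.

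**Figure D4:**
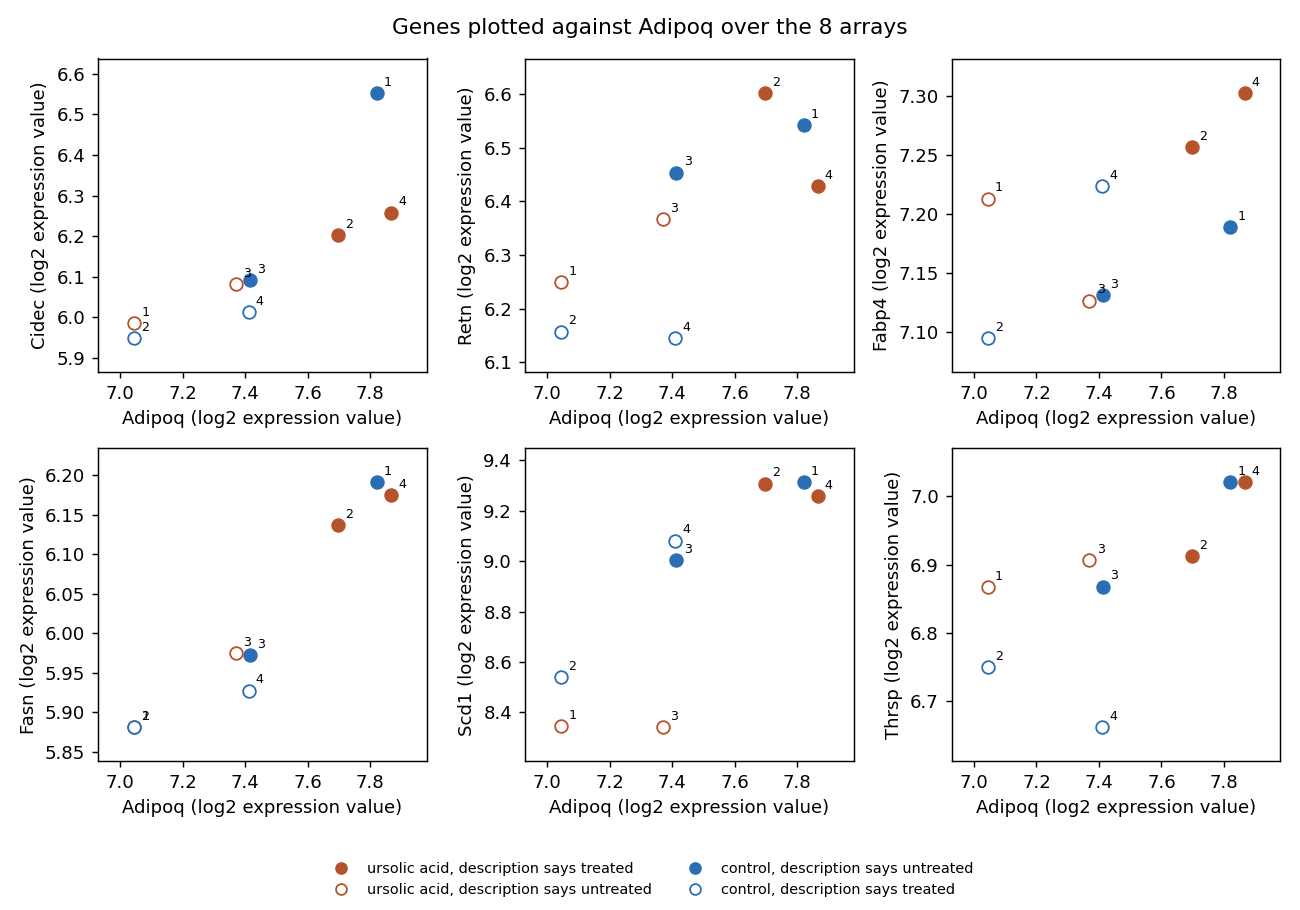
Each panel plots the log2 expression value of 1 gene against that of Adipoq over the 8 arrays, with sample numbers beside the points and fills as in the plot of markers by array. Cidec and Fasn are higher on arrays where Adipoq is higher (r of 0.84 and 0.96), while Fabp4 and Retn scatter more (r of 0.62 and 0.76).

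By the rule of highest r with the score among genes with an SD of at least 0.3, the 15 genes most like the score were mainly dim. Of the 15, 14 lay below the receptor guide, led by the taste receptor gene Tas2r107 (r = 0.90), and several were olfactory receptor genes. Only Tubb2a, a tubulin, was above the guide (r = 0.78). Fasn, with a smaller SD than 0.3, was outside this rule.

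The 3 variable markers also differed by how the sample labels agree. Among arrays with concordant labels (ursolic acid samples 2 and 4, control samples 1 and 3), Adipoq averaged 7.70 ± 0.20, against 7.22 ± 0.20 among the 4 arrays with discordant labels (SD, n = 4). Retn averaged 6.51 ± 0.08 against 6.23 ± 0.10, and Cidec 6.28 ± 0.20 against 6.01 ± 0.06. In all 3 genes, and in none of the other 5 markers, every concordant array was above every discordant one, which held in 1.47% of all rows in either direction. For Adipoq the closest arrays, control samples 3 and 4, both rounded to 7.41. For Cidec the closest were control sample 3 at 6.09 and ursolic acid sample 3 at 6.08, with control sample 1 far above them at 6.55.

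The same contrast can be read as a diet difference that depends on the description. In samples described as treated, Adipoq was higher with ursolic acid by 0.55, and in those described as untreated it was lower, at -0.41. The values were 0.36 and -0.19 for Retn and 0.25 and -0.29 for Cidec. In a limma fit with a title by description term, 3 of 8 markers passed an unadjusted p of 0.05 (Adipoq 0.00649, Retn 0.00428, Cidec 0.0310), where 3.42% of all rows did. No row passed after adjustment (limma adjusted p = 0.9997 for each of the 3). In the 4 samples described as treated alone, the same 3 markers passed an unadjusted p of 0.05 by limma and none an adjusted one, where 6.69% of all rows passed unadjusted. The comparison was made after the values were seen, these 3 genes move together, and it is not known which label is right.

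Paralogues of the markers, relatives with the same fold or function in other tissues, were compared next. Of 29 measured, 14 had values above and 15 below control, with a median log2 difference of -0.03, and 3 passed an unadjusted p of 0.05 by limma, none an adjusted one. That share was near the 7.07% of all rows. The 3 were Plin3, the perilipin of most tissues (0.24 ± 0.10, SE), Retnla, a resistin relative of activated macrophages (0.32 ± 0.12), and C1qtnf4, an adiponectin relative (-0.24 ± 0.11). The perilipins Plin2, Plin4 and Plin5 had differences of 0.07, 0.00 and -0.05. Fabp3, the fatty acid carrier of muscle, had -0.04, Cidea -0.04, Cideb 0.00, and the receptors Ppara and Ppard -0.20 and -0.07.

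On the list of other adipocyte genes, 20 of 41 had values above and 21 below control, with a median of 0.00, and 5 passed an unadjusted p of 0.05 by limma, where 7.07% of all rows did, and none an adjusted one. Cyp2e1, a cytochrome P450 of liver and fat, had the largest difference of them, at 7.37, 7.20, 7.10 and 7.54 in ursolic acid arrays, against 6.64, 5.82, 6.19 and 6.32 in control arrays. Its groups did not overlap, and its r with the marker score was 0.48. Pcx, pyruvate carboxylase, had a difference of 0.22 ± 0.08 (SE). Aqp7, the glycerol channel, had -0.28 ± 0.10, Ghr, the growth hormone receptor, -0.24 ± 0.10, and Agt, angiotensinogen, -0.22 ± 0.09. Among 21 measured genes that control lipolysis 2 passed unadjusted, Aqp7 and Plin3, and the median was -0.04, again with 7.07% of all rows passing. Among 22 adipogenic regulators 1 passed, the corepressor Nrip1 (0.35 ± 0.09), and the median was -0.04.

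Receptors of the adipokines were measured too. Adipor1 and Adipor2, the adiponectin receptors, had log2 differences of 0.03 ± 0.07 and 0.05 ± 0.07 (SE), and Cdh13, T-cadherin, which binds adiponectin, 0.05 ± 0.08. Lepr, the leptin receptor, had 0.28 ± 0.10 (limma unadjusted p = 0.0216, adjusted p = 0.616) at a level below the receptor guide. C3ar1, the receptor of a peptide made in the pathway that adipsin serves, was 6.32, 6.18, 6.20 and 6.45 in ursolic acid arrays, against 5.71, 5.64, 5.47 and 5.60 in control arrays (difference 0.68 ± 0.08, limma adjusted p = 0.0845). Cfb, complement factor B, the substrate of adipsin, had 0.33 ± 0.06 (adjusted p = 0.188).

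Markers of other cell types give the setting of these values. All 15 measured macrophage genes had higher values with ursolic acid, 12 of them past an unadjusted p of 0.05 by limma and none past an adjusted one. Of all rows 7.07% passed the unadjusted threshold, and this share applies to each list named here. The mean centred level of that list ran from 0.08 to 0.27 in ursolic acid arrays, against -0.26 to -0.10 in control arrays arrays. The brown fat list had 8 of 14 genes above and 6 below control with none past an unadjusted p, and Ucp1, the uncoupling protein that defines brown fat, lay below the receptor guide, at 4.37 with ursolic acid and 4.44 in control arrays. Of 15 genes of fibroadipogenic progenitors, 6 were above and 9 below control, and 1, Cd34, passed an unadjusted p of 0.05 (0.32 ± 0.13, SE). No gene passed an unadjusted p of 0.05 by limma in the muscle (12 measured), endothelial (12), Schwann cell (7), epidermal (7) or red cell (4) lists, whose median differences were 0.00, -0.06, -0.01, -0.06 and 0.00. The part of any of these cell types in the marker values was not tested.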

How the data were processed

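The deposited values are log2 expression values. The authors made them by RMA (background correction, normalization across arrays and a summary over probes) and name build mm9, per the submitters' processing notes. RNA was amplified before labelling with biotin, per the labels' protocols. For the software version, summary level and row filters no source was at hand, and base 2 was inferred from the range. No further normalization was applied. Of 16755 rows, 14996 carried 1 gene symbol, 1019 several and 740 none in the platform annotation, and 14941 matched the RefSeq table of GRCm38.p6 by gene number. For a gene with several rows the one with the highest mean was used, and each measured marker had 1 row.

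Ursolic acid minus control was estimated for every row by lmFit and eBayes of limma 3.58.1 (R 4.3.3), with 4 arrays a group. Tests were two-sided, and p-values were adjusted by Benjamini-Hochberg across the whole table (threshold 0.05). Correlations were tested over all 40320 pairings of 8 arrays. The fits were checked on simulated data. The markers and lists were chosen with earlier results of these data known. Genes named were the markers, the 4 of each list with the smallest p, any paralogue or adipokine receptor, the 4 brightest muscle genes and the 15 most like the score. Agt, Thrsp, Hp, Cav1, Fasn, Scd1, Tle3, Scarb1, Pip5k1c, Rell1 and Elf1 were named after their values were seen. So were Dgat2, Gpam, Acly, Lpl, Acaca, Cebpa, Bag6, Slc25a37, Erp29 and Crybb1. Motifs were also chosen after the values were seen. P-values measure the spread between pools. Alternatives were other scalings, moderation, array weights, a filter on dim rows, the replicate block, leaving out each sample and groupings by the description. Same-numbered samples deviated with correlations of 0.13, 0.08, 0.02 and 0.19 over rows, and differently numbered ones with -0.21 to 0.20. The numbers were therefore not taken to pair samples. Across groups, pairs both described as treated had 0.06 to 0.19 and pairs both described as untreated -0.02 to 0.20. Pairs of unlike description had -0.21 to 0.03. What lies behind this split was not tested. No arrays were identical, and the number of arrays limits precision.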

Additional observations from a re-analysis of the deposited data

Results flagged for a closer look

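For Adipoq, Retn, Cidec and Scd1, every ursolic acid array lay above every control array among samples described as treated, and below every control array among samples described as untreated. The check, made after the values were seen, covered the 8 measured markers and Fasn, Scd1, Thrsp, Hp and Cav1. The genes outside the marker list had been picked for their high r with the marker score. Scd1 had an r of 0.85 with Adipoq, so its pattern follows in part from that choice and is no separate instance. The share of all rows that meet this rule was not counted, so how unusual these genes are is unknown. Among samples described as untreated the gap was narrow for Adipoq and Cidec. Control sample 3 and ursolic acid sample 3 had 7.41 and 7.37 for Adipoq, and 6.09 and 6.08 for Cidec. The change of the log2 difference between the description classes was 0.96 ± 0.26 (SE) for Adipoq, 0.55 ± 0.14 for Retn, 0.54 ± 0.20 for Cidec and 1.29 ± 0.25 for Scd1. The limma unadjusted p was 0.00649, 0.00428, 0.0310 and 0.000969, and the adjusted p was 0.9997 for each. Of all rows, 3.42% passed an unadjusted p of 0.05 for this term by limma. Each class holds 2 arrays of each diet. In 28 sets of 4 samples (a gene or the marker score within a group), 0 held an outlying sample by Dixon's criterion, where chance gives about 1 in 20.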

How the results depend on the processing

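No marker passed an adjusted p of 0.05 under any of the 19 alternatives, the smallest being 0.553, and under 18 of them none passed an unadjusted p of 0.05. The exception, chosen after seeing the data, was the fit in samples described as treated, where 3 passed, against 6.69% of all rows. With the replicate block the median difference was 0.06 and no marker's call changed. The median was -0.0205 with concordant labels, -0.0471 with groups taken from the description and -0.0523 in samples described as untreated, and it ran from -0.0114 to 0.11 on leaving out 1 sample in turn. Signs turned for Cidec with array weights (0.0677) and in samples described as treated (0.25), for Pnpla2 with concordant labels (-0.0586) and with groups from the description (-0.11), for Retn with groups from the description (-0.0693) and in samples described as untreated (-0.19), and for Adipoq in samples described as untreated (-0.41). Leaving out 1 sample in turn gave differences of -0.0539 to 0.22 for Adipoq, -0.12 to 0.0263 for Lep, 0.0233 to 0.16 for Retn, 0.075 to 0.16 for Pparg, 0.039 to 0.098 for Fabp4, -0.11 to -0.059 for Plin1, -0.0873 to 0.11 for Cidec and 0.0099 to 0.10 for Pnpla2. Correlations with Adipoq then ran from 0.81 to 0.95 for Cidec, from 0.67 to 0.85 for Retn, from 0.44 to 0.81 for Fabp4, from 0.31 to 0.55 for Pparg, from -0.52 to -0.11 for Plin1, from -0.37 to 0.13 for Pnpla2 and from -0.32 to 0.48 for Lep, which was -0.83 without the 2 arrays farthest from the Adipoq median. The cause was not tested. With the replicate block, 8 genes of the other adipocyte list passed an unadjusted p of 0.05 (5 without), 3 progenitor genes (1 without) and 2 adipogenic regulators (1 without). Progenitor genes numbered 2 with median centring or without dim rows, and adipokine receptors 1 without dim rows (2 with them). In at least 1 of those settings 1 endothelial, 1 Schwann cell and 1 brown fat gene passed, against 0. The mean of several rows per gene was not run, since each marker had 1 row. No detection call limits what can be said of Lep.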

Other observations

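Among 7293 genes above the receptor guide, ranked after the values were seen by r with the marker score over 8 arrays and with no minimum SD, Fasn came first. Tle3, a cofactor of PPARγ in fat cells, was the third (r = 0.92), with a 1.10-fold range between its highest and lowest array. Scarb1, the receptor that takes up cholesterol ester from HDL, was the sixth (r = 0.91), with a 1.27-fold range. Pip5k1c came right after Fasn (r = 0.94), and Rell1 and Elf1 lay between Tle3 and Scarb1 (0.92 and 0.91). After Scarb1 came Bag6, Slc25a37, Erp29 and Crybb1, with r of 0.89 to 0.86. Whether this ranking has to do with fat cells was not tested. None of these genes passed an unadjusted p of 0.05 between diets by limma, with differences of -0.01 to 0.10. Ranking so many genes over 8 arrays favours high r, and 88 of them, or 1.21%, had an r above 0.7.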
